A study of Homo sapiens with 8 samples.

Results

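The cell's oxygen-sensing step is the subject here: the prolyl hydroxylase genes *EGLN1*, *EGLN2* and *EGLN3*, the asparaginyl hydroxylase gene *HIF1AN* and the ubiquitin ligase gene *VHL*. They were taken by symbol from the counted genes, 5 of 23193. Transcription was followed by PRO-seq, a nuclear run-on method whose reads mark engaged RNA polymerases and not stored RNA. The cells were HCT116, an established human colorectal carcinoma line, either wild-type (WT) or HIF1A-/-, a derivative line whose *HIF1A* had been knocked out by homologous recombination. Each genotype was held in normoxia or moved to hypoxia (1% O2 for 90 min), every culture received the vehicle DMSO, and each of the 4 groups held 2 of the 8 libraries. HIF1A-/- cells still carry *EPAS1*, which encodes HIF2A, and the sources used here do not say whether the line is 1 clone.

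When oxygen is plentiful, the EGLN enzymes hydroxylate prolines of the HIF alpha subunits. VHL, the substrate receptor of a cullin-2 ubiquitin ligase, then binds the hydroxylated protein, which is ubiquitylated and degraded. HIF1AN hydroxylates an asparagine of the same subunits and so blocks their contact with coactivators, and all of these hydroxylases use molecular oxygen and 2-oxoglutarate. *EGLN1* (also called PHD2) is regarded as the main HIF prolyl hydroxylase in most cells, while *EGLN3* (PHD3) and *EGLN2* (PHD1) are its paralogs.

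Each gene had been counted in a TSS region of 551 bp and in a gene body taken from 1001 bp after the counted start onwards. Gene body totals ran from 18125234 to 23622392 reads per library and TSS totals from 2783581 to 5966348. The HIF1A-/- libraries numbered 1 stood apart, with 11.2% (normoxia) and 12.9% (hypoxia) of their reads in TSS regions against 16.9% to 20.2% in the other 6. The epithelial markers *EPCAM*, *KRT8*, *KRT18* and *CDH1* were at 47.9 to 526 CPM (gene body reads scaled to library size) in every library, while the intestinal genes *VIL1* and *CDX1* reached no more than 0.622 and 0.23 CPM. *HIF1A* itself kept gene body reads in all 8 libraries (130 to 175 CPM), and since these regions reach beyond the disrupted part, its reads do not check the genotype.

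Where the counted regions lay decided what could be read for each member (GRCh37 coordinates). *EGLN3* (Entrez 112399) had its body at chr14:34393420-34419283, minus strand, with the annotated start 4 bp from the counted one. *HIF1AN* (Entrez 55662; chr10:102296641-102313681, plus strand) and *VHL* (Entrez 7428; chr3:10184319-10195354, plus strand) had their annotated starts 60 and 144 bp downstream of the counted ones, inside the TSS region. These bodies run across introns and exons, with 7.8%, 37.6% and 36.3% of their length exonic, respectively. For *EGLN1* (Entrez 54583; body chr1:231499496-231559789, minus strand, 7.2% exonic) the annotated start lay 2757 bp downstream of the counted one and 1756 bp inside the counted body. Its TSS region held 0 to 2 reads per library, below the floor of 3 counts, so *EGLN1* has no TSS value and its body count includes the annotated start.

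*EGLN2* (Entrez 112398; body chr19:41306334-41314346, plus strand) was the reverse case. Its body lies wholly inside that of the readthrough gene *RAB4B-EGLN2* on the same strand, and it was given 0 reads in all 8 libraries, as were 437 of 437 gene bodies that lie inside another on the same strand. A count of 0 there is no measure of *EGLN2* transcription. Its TSS region (chr19:41305283-41305833) is shared with no other counted TSS region and held 109 to 194 reads per library. That region lies inside the *RAB4B-EGLN2* body on the same strand, so its count may include readthrough reads from upstream, which was not tested. The annotated start of the *EGLN2* reference transcript lies at position -237 from the counted one, upstream of it, and another annotated start lies 3 bp from it. No member region had a counted gene on the opposite strand.

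**Figure D1:**
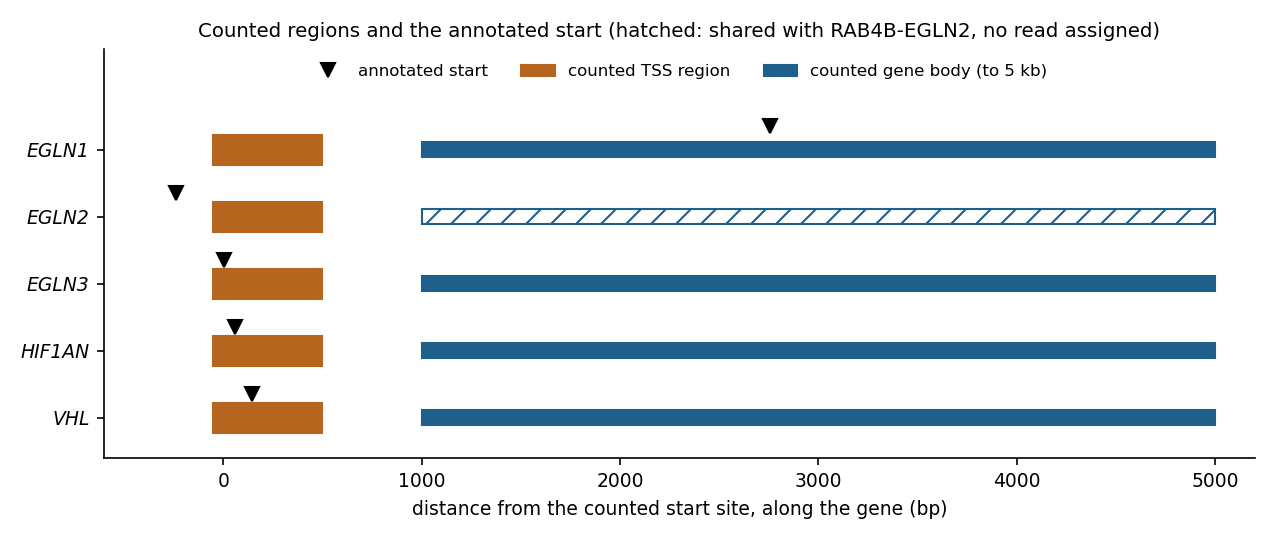
Position of the counted TSS regions and gene bodies (drawn to 5 kb) relative to the counted start site of each gene, in bp along the direction of transcription, with the annotated start of the reference transcript as a triangle. The *EGLN1* triangle falls inside the gene body, 2757 bp from the counted start, and the hatched *EGLN2* body received 0 reads.

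RefSeq promoter sequences (GRCh38.p14) were at hand for 4 of the 5 members, and *VHL* was not among them. They are shown for the hydroxylases because *EGLN1* and *EGLN3* responded to hypoxia and the others set a contrast. Windows of 300 bases around each start (250 before and 50 from the start on) were searched on both strands for ACGTG and GCGTG, the letters known as the core of HIF-bound sites. ACGTG was held by 21.4% of 35116 RefSeq promoters and GCGTG by 36.5%, with 48.4% holding at least 1 of them. The 250 bases upstream of each start follow, 5′ to 3′ on the gene's strand, with matches in capitals. The lines are *EGLN1* at chr1:231422288-231422537 (minus), *EGLN3* at chr14:33951075-33951324 (minus), *EGLN2* at chr19:40798941-40799190 (plus) and *HIF1AN* at chr10:100535693-100535942 (plus).
EGLN1: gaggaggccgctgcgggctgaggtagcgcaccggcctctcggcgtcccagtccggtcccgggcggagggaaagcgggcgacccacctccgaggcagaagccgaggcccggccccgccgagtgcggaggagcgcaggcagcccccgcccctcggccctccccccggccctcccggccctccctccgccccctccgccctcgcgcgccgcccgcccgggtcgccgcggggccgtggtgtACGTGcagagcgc
EGLN3: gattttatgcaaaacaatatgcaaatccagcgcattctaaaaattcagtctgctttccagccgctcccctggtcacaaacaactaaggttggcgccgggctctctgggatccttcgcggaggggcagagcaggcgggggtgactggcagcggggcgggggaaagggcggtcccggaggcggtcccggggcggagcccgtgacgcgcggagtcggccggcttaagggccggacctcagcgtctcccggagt
EGLN2: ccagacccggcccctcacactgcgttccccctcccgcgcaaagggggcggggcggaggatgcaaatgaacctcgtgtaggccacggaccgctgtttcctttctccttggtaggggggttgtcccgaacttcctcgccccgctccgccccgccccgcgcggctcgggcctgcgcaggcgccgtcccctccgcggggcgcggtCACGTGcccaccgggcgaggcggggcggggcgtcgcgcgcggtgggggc
HIF1AN: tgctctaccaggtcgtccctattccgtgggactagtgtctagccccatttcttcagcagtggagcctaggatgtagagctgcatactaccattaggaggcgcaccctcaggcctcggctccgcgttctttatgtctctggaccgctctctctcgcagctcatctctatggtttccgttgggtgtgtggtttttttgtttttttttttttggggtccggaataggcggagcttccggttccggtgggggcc

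The *EGLN1* window held 1 ACGTG, which begins at position -13 from the start. The first of the *EGLN2* windows held CACGTG, a palindrome that counts as 1 ACGTG on each strand (positions -49 and -48), and a second RefSeq start of *EGLN2* had no match. Neither motif was found for *EGLN3* or *HIF1AN*. The *EGLN1* and *EGLN2* windows had a G+C content of 80.0% and 76.3%, against 65.0% for *EGLN3* and 58.0% for *HIF1AN*. These matches describe the letters in the windows only.

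In WT cells, transcription of *EGLN1* and *EGLN3* rose within 90 min of hypoxia, whereas *HIF1AN* and *VHL* did not pass the test. Gene body values of *EGLN1*, in CPM after TMM normalization, were 143 and 118 in the WT normoxia libraries and 305 and 374 in WT hypoxia. In HIF1A-/- cells they were 109 and 98.9 in normoxia and 110 and 104 in hypoxia. The WT hypoxia libraries were thus the highest of the 8, and no other group overlapped them. The fitted WT change was 2.60-fold (95% confidence interval 2.04 to 3.33), or 1.38 ± 0.154 on the log2 scale (SE, n = 2 per group; edgeR quasi-likelihood test, adjusted p = 0.0196). Libraries of the same replicate number gave 2.14-fold and 3.17-fold.

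*EGLN3*, a well-known hypoxia-induced gene, started much lower. Its gene body values were 14.9 and 15.4 CPM in WT normoxia and 53.2 and 83.7 CPM in WT hypoxia. HIF1A-/- libraries had 13.2 and 14.1 CPM in normoxia and 11.8 and 18.3 CPM in hypoxia. Again the WT hypoxia libraries were the highest and stood clear of every other library, with a gap between the pair that exceeded the spread of the remaining 6. The WT change was 4.52-fold (2.91 to 7.02), or 2.17 ± 0.275 on the log2 scale (adjusted p = 0.0314), and the numbered pairs gave 3.58-fold and 5.42-fold.

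Thus 2 of the 4 members with a testable gene body were called higher, against 0.431% of all 16686 gene bodies tested (72 higher and 0 lower, at a false discovery rate of 10%). By size of change they ranked 46th (*EGLN1*) and 22nd (*EGLN3*) of those 72. With 2 libraries per group the calls did not hold under every omission of 1 library. Leaving out WT normoxia replicate 1, WT normoxia replicate 2 or WT hypoxia replicate 2 gave adjusted p of 0.190, 0.332 and 0.178 for *EGLN1* and of 0.463, 0.480 and 0.255 for *EGLN3*. Over all 8 such omissions the log2 fold changes stayed between 1.23 and 1.53 for *EGLN1* and between 1.81 and 2.47 for *EGLN3*.

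**Figure D2:**
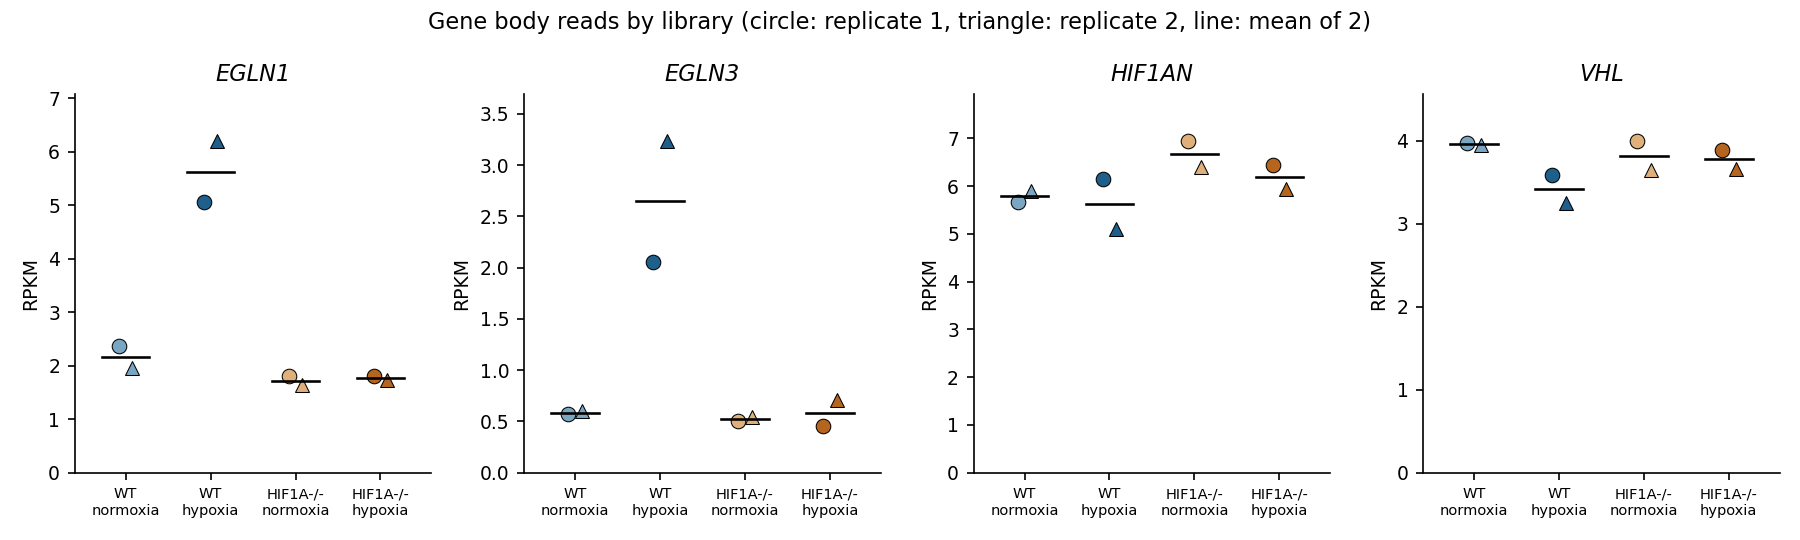
Gene body reads scaled to length and library size (RPKM) of each testable member in every library, grouped by genotype and oxygen, with the group mean of 2 libraries as a line and each axis starting at 0. For *EGLN1* and *EGLN3* the WT hypoxia libraries (5.06 and 6.20, and 2.06 and 3.24 RPKM) lie above all others, while the groups of *HIF1AN* and *VHL* lie close together.

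*HIF1AN* and *VHL* stayed within a narrow range. *HIF1AN* had 96.6 and 101 CPM in WT normoxia and 105 and 86.9 CPM in WT hypoxia, with 118, 109, 110 and 101 CPM in the HIF1A-/- libraries (normoxia, then hypoxia). Its WT hypoxia libraries lay on either side of the normoxia pair, with a log2 fold change of -0.04 (95% confidence interval -0.36 to 0.27). *VHL* had 43.9 and 43.5 CPM in WT normoxia and 39.6 and 35.8 CPM in WT hypoxia, with 44.1, 40.2, 42.9 and 40.4 CPM in HIF1A-/- cells. Here both WT hypoxia libraries were the lowest of the 8, but the difference of -0.21 (-0.53 to 0.10) did not pass the test (adjusted p = 0.897). The intervals leave room for a rise of *HIF1AN* of up to 1.21-fold and a fall of *VHL* to 0.695-fold.

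In HIF1A-/- cells, no member was called in hypoxia against normoxia, nor was any other gene body (percent called 0 in each direction by edgeR). At an unadjusted p below 0.05 there were 175 gene bodies higher and 172 lower, and DESeq2 called 8. The log2 fold changes were 0.04 (-0.31 to 0.39) for *EGLN1*, 0.15 (-0.48 to 0.77) for *EGLN3*, -0.11 (-0.42 to 0.21) for *HIF1AN* and -0.02 (-0.33 to 0.29) for *VHL*. The upper limits for *EGLN1* and *EGLN3* lie below the lower limits of their WT changes.

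The difference between the genotypes in the response was tested as such. The HIF1A-/- response minus the WT response was -1.34 ± 0.215 on the log2 scale for *EGLN1* and -2.03 ± 0.383 for *EGLN3*, with adjusted p of 0.227 and 0.401, so neither was called among all gene bodies (9 called lower, 0.0539%). With the replicate number as a block the adjusted p were 0.0283 and 0.0189 (0.384% of gene bodies called lower), and with DESeq2 8.9e-05 and 8.1e-04 (0.408%). The sizes under the block, -1.34 and -2.02, were close to those without it. *HIF1AN* (-0.06) and *VHL* (0.20) were not called in any of these fits.

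In normoxia no member was called between the genotypes. *EGLN1* was at 0.797-fold in HIF1A-/- against WT cells (0.625 to 1.02; adjusted p = 0.599), *EGLN3* at 0.899-fold (0.582 to 1.39), *HIF1AN* at 1.15-fold (0.928 to 1.43) and *VHL* at 0.965-fold (0.777 to 1.20). That was 0 of 4, against 1.78% of all gene bodies. Both HIF1A-/- normoxia libraries were nonetheless below both WT ones for *EGLN1* and *EGLN3*, and above both for *HIF1AN*. The libraries of *VHL* overlapped. In hypoxia, *EGLN1* and *EGLN3* were called lower in HIF1A-/- cells, by log2 differences of -1.67 ± 0.155 (adjusted p = 0.00217) and -2.18 ± 0.275 (adjusted p = 0.00778), against 2.79% of all gene bodies called lower. This comparison shares its WT hypoxia libraries with the WT response above. The calls held in all 13 alternatives run, with adjusted p up to 0.0229 for *EGLN1* and 0.0590 for *EGLN3*.

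**Figure D3:**
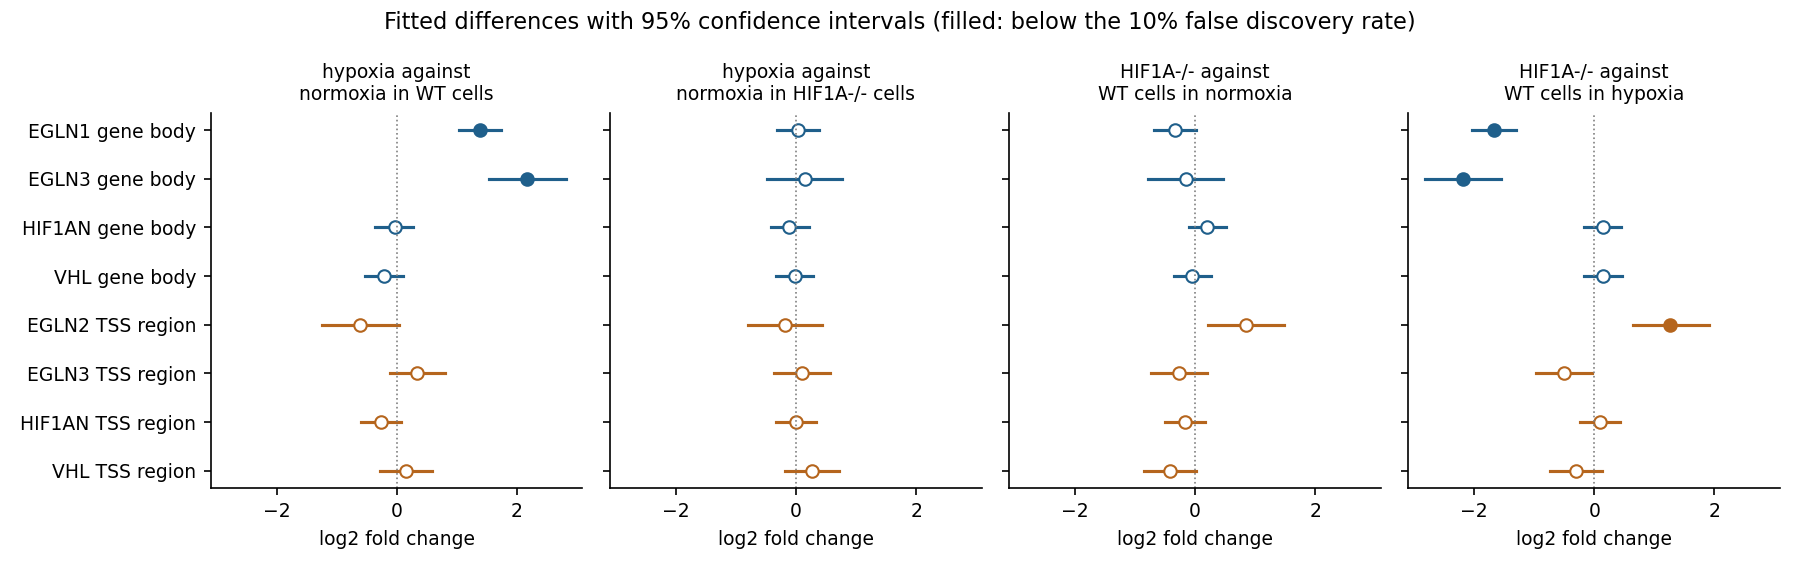
Fitted log2 fold changes (points) with 95% confidence intervals (lines) for each testable gene body (blue) and TSS region (brown) in 4 comparisons, where filled points passed the false discovery rate of 10%. The gene bodies of *EGLN1* and *EGLN3* were called in WT hypoxia and between genotypes in hypoxia, and the *EGLN2* TSS region was called between genotypes in hypoxia.

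Levels between genes can be compared only per length, as RPKM. In WT normoxia the gene bodies ran in the order *HIF1AN* (5.67 and 5.90), *VHL* (3.97 and 3.95), *EGLN1* (2.37 and 1.96) and *EGLN3* (0.575 and 0.597), with no overlap between neighbours. In WT hypoxia *EGLN1* (5.06 and 6.20) and *HIF1AN* (6.14 and 5.10) overlapped, and those neighbours did not differ beyond their spread. *EGLN3* (2.06 and 3.24) came up to the lower *VHL* library (3.59 and 3.24). HIF1A-/- cells kept the normoxic order in hypoxia, with *HIF1AN* at 6.44 and 5.95, *VHL* at 3.89 and 3.66, *EGLN1* at 1.82 and 1.73 and *EGLN3* at 0.457 and 0.707. The *EGLN1* values hold reads from its annotated start, which the other bodies leave out.

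At the TSS regions, all of 551 bp, the order was different. *EGLN3*, with the fewest gene body reads, had the most TSS reads: 235 and 236 CPM in WT normoxia, where CPM is scaled to the total of TSS reads. *HIF1AN* had 139 and 128 CPM there, *VHL* 105 and 79.6 CPM, and *EGLN2* 30.0 and 33.4 CPM. Neighbours in this order did not overlap in WT normoxia. The *EGLN2* region leaves out the annotated start of its reference transcript, at position -237, whereas the *EGLN3*, *HIF1AN* and *VHL* regions contain theirs. Its last place is therefore not a like comparison.

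In WT cells none of these TSS counts passed the test in hypoxia. *EGLN3* went to 287 and 308 CPM, 1.26-fold (0.918 to 1.74; adjusted p = 0.922), and both hypoxia libraries were above both normoxia ones. *HIF1AN* went to 115 and 108 CPM and *VHL* to 108 and 97.3 CPM, at 0.830-fold (0.660 to 1.04) and 1.11-fold (0.826 to 1.50). *EGLN2* had 22.9 and 18.7 CPM in WT hypoxia, below both normoxia libraries, at 0.655-fold (0.421 to 1.02; adjusted p = 0.922). That was 0 of 4 testable TSS regions, against 0.0460% of 15212 TSS regions. In HIF1A-/- cells the log2 fold changes of the 4 lay between -0.19 (*EGLN2*) and 0.27 (*VHL*), with none called among all TSS regions by edgeR (77 higher and 58 lower at an unadjusted p below 0.05) or by DESeq2. The difference between genotypes in the response was not called for any of them either, where 0.00657% of TSS regions were.

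*EGLN2* was the member whose TSS reads differed with genotype. HIF1A-/- cells had 69.8 and 45.1 CPM in normoxia and 61.7 and 39.2 CPM in hypoxia, so every HIF1A-/- library was above every WT library. In read counts these were 193 and 194 in normoxia and 186 and 168 in hypoxia, against 135 and 128, and 109 and 109, in WT cells. In hypoxia the difference was 2.42-fold (1.55 to 3.76), or 1.27 ± 0.293 on the log2 scale (adjusted p = 0.0849), and it was called where 0.440% of TSS regions were called higher. In normoxia it was 1.80-fold (1.17 to 2.78; adjusted p = 0.432, and 0.0387 with the replicate block, which called 2.24% of TSS regions higher), where none of the 4 was called against 0.657% of TSS regions.

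The *EGLN2* values were highest in the HIF1A-/- libraries numbered 1, which had the lowest TSS share. Without both of those libraries the hypoxia difference was 0.92 on the log2 scale (adjusted p = 0.439), and the part of the TSS share in the result was not tested further. Leaving out any 1 WT library, or HIF1A-/- hypoxia replicate 1, also ended the call, with log2 differences of 0.92 to 1.42 and adjusted p of 0.146 to 0.788. *RAB4B-EGLN2* has a single stretch of body shared with no other counted body (chr19:41302850-41306333, 3484 bp). Of it, 2483 bp lie before the counted *EGLN2* start and 1001 bp from that start on, so it takes in the *EGLN2* TSS region and its reads are neither independent of the TSS count nor mainly an *EGLN2* measure. Its reads, 312 to 500 per library, were at 1.11-fold in HIF1A-/- cells in normoxia (0.838 to 1.48) and at 1.13-fold in hypoxia (0.851 to 1.50), neither called.

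The TSS reads of *EGLN3* ran the other way between genotypes. HIF1A-/- cells had 160 and 229 CPM in normoxia and 160 and 257 CPM in hypoxia. The hypoxia difference of 0.704-fold (0.510 to 0.972) had an adjusted p of 0.328, or 0.0195 with the replicate block (6.97% of TSS regions called lower), and without both HIF1A-/- libraries numbered 1 the log2 difference shrank from -0.51 to -0.21. *HIF1AN* (126, 113, 127 and 111 CPM) and *VHL* (57.9, 79.7, 83.9 and 82.5 CPM) were not called between genotypes at either oxygen level. As with *EGLN3*, both *VHL* values in HIF1A-/- hypoxia were below both in WT hypoxia (108 and 97.3 CPM). The log2 difference was -0.39 to -0.23 over the 13 alternatives.

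**Figure D4:**
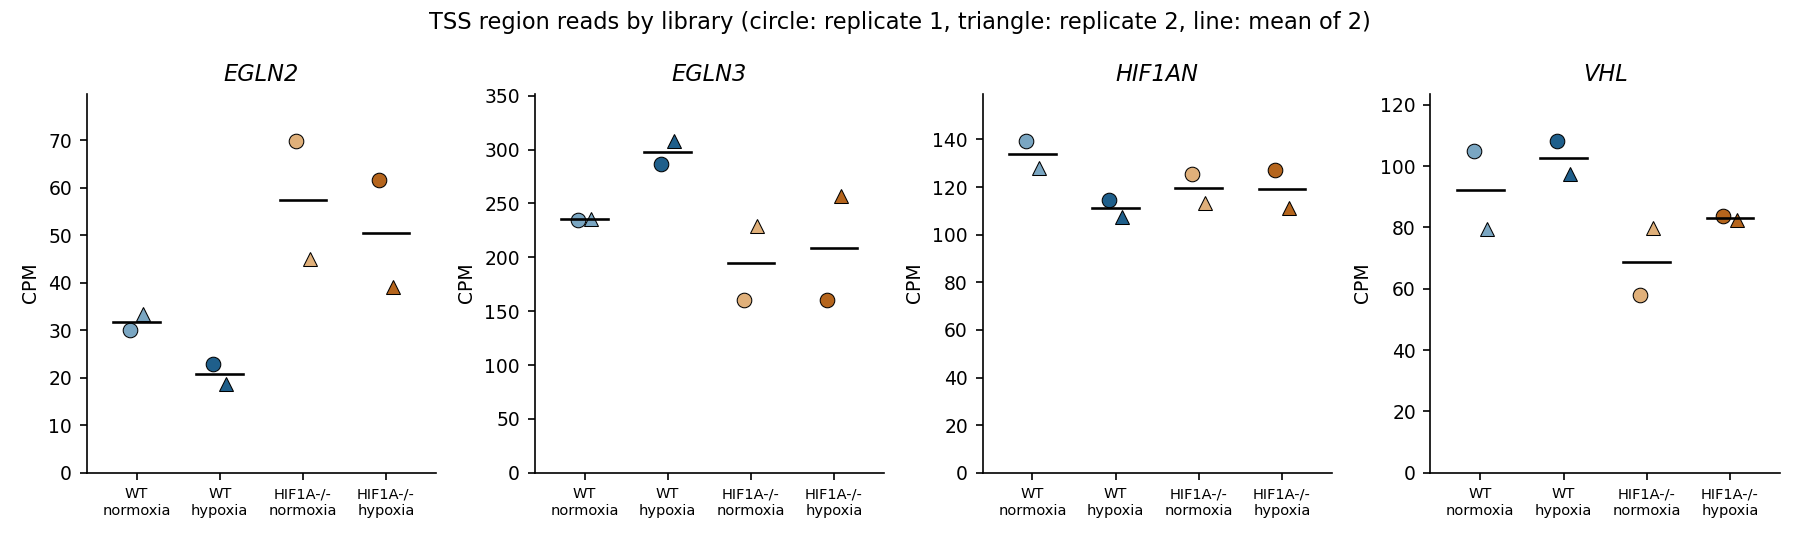
TSS region reads scaled to the total of TSS reads (CPM) of each testable member in every library, grouped by genotype and oxygen, with the group mean of 2 libraries as a line and each axis starting at 0. For *EGLN2* the 4 HIF1A-/- libraries (39.2 to 69.8 CPM) lie above the 4 WT libraries (18.7 to 33.4 CPM), and for *EGLN3* the HIF1A-/- library numbered 1 is the lower of each pair.

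Setting TSS reads per bp over gene body reads per bp gives a pausing measure for the 3 members with both. *EGLN3* was strongly weighted to its start: the ratio was 165 and 151 in WT normoxia, higher than at 98.6% and 98.7% of the genes tested in both regions, whose median ratio was 10.5 and 9.76. In WT hypoxia it was 63.6 and 41.8, above 92.9% and 85.7% of genes. The HIF1A-/- libraries had ratios of 75.6 and 151 (normoxia) and of 96.1 and 133 (hypoxia). The ratio fell in WT hypoxia to 0.283 of its normoxic value (0.200 to 0.401), or -1.82 ± 0.237 on the log2 scale (adjusted p = 0.00174), and this call held in all 13 alternatives. Over all 14494 genes tested for the ratio 0.186% were called lower. The ratio is made from the same counts as the gene body and TSS values above, so it is not a separate measurement.

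No change of the *EGLN3* ratio was called in HIF1A-/- cells (log2 -0.01, -0.52 to 0.50), nor was that of any gene by edgeR or DESeq2 (136 higher and 110 lower at an unadjusted p below 0.05). The HIF1A-/- response minus the WT response was 1.81 ± 0.339 on the log2 scale, with an adjusted p of 0.155, or of 0.0144 with the replicate block and 0.0150 with DESeq2. These fits called 0.0207%, 0.131% and 0.110% of genes higher, in that order. *HIF1AN* and *VHL* had ratios near the median of all genes. In WT cells *HIF1AN* ran from 8.33 to 9.96 and *VHL* from 7.74 to 13.8, and their log2 changes in hypoxia, -0.24 (-0.66 to 0.18) and 0.36 (-0.14 to 0.86), were not called. *EGLN1* and *EGLN2* have no ratio, for want of a TSS count and of a gene body count.

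**Figure D5:**
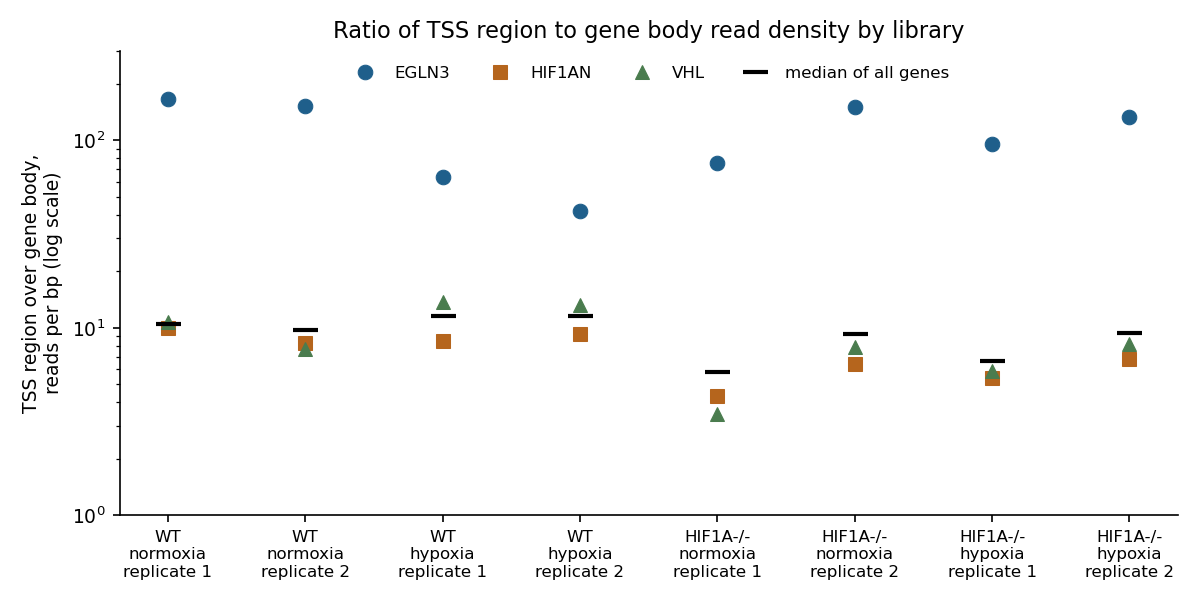
Ratio of TSS region to gene body read density (reads per bp, log scale) in each library for *EGLN3*, *HIF1AN* and *VHL*, with the median of all genes tested in both regions as a bar. *EGLN3* lies far above the median in every library and is lowest in WT hypoxia (63.6 and 41.8).

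The other subunits of the VHL ligase and their regulators were read in the same way. Of 9 genes of the VHL ligase and the cullin activity cycle, 8 gene bodies could be tested and 0 were called in WT hypoxia, where 0.431% of all gene bodies were called higher and 0 lower. Their median log2 change was -0.17 beside -0.02 over all gene bodies. *CUL2*, the cullin scaffold, was at -0.19 (-0.47 to 0.10), the adaptors *ELOB* and *ELOC* at -0.20 and -0.10, and the RING subunit *RBX1* at -0.01. *NEDD8*, which encodes the ubiquitin-like modifier of cullins, had 0 reads in its counted body in all 8 libraries. A count of 0 can arise from overlap with another counted body, as for *EGLN2*. Overlaps of *NEDD8* were not examined, so its 0 is not read as a lack of transcription. None of the 8 was called between genotypes either (*ELOB*, 1.27-fold in hypoxia, was with the replicate block, adjusted p = 0.0638, as were 13.1% of all gene bodies in that direction).

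Of 14 genes listed as acting on or related to the hydroxylases or VHL, 1 was called higher in WT hypoxia and 13 were not called. Of all gene bodies, 0.431% were called higher. Their median log2 change was 0.07. That gene was *WSB1*, whose product is the substrate receptor of a ubiquitin ligase that targets VHL. Its gene body had 41.7 and 42.8 CPM in WT normoxia, 101 and 146 CPM in WT hypoxia and 39.1 to 44.4 CPM in the 4 HIF1A-/- libraries. The WT change was 2.92-fold (log2 1.55 ± 0.188, adjusted p = 0.0314) and the HIF1A-/- change 1.01-fold. The difference of -1.54 between the responses had an adjusted p of 0.304, or 0.0168 with the replicate block. *SIAH2* encodes a ubiquitin ligase for the *EGLN3* product. Its gene body had 87.8 and 72.2 CPM in WT normoxia and 100 and 99.1 CPM in WT hypoxia. The *SIAH2* log2 fold change of 0.32 (-0.03 to 0.66) did not pass.

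Between genotypes in hypoxia, *WSB1* was called lower in HIF1A-/- cells (0.338-fold, adjusted p = 0.00676) and *WTIP*, an Ajuba-family LIM protein, higher. *WTIP* had 19.3 and 16.8 CPM in WT hypoxia and 42.9 and 30.9 CPM in HIF1A-/- hypoxia, 2.05-fold (adjusted p = 0.0971), where 1.47% of all gene bodies were called higher. The replicate block called 2 of the 14 higher and 3 lower, among 13.1% and 15.1% of all gene bodies. It added *SIAH2* (0.683-fold, adjusted p = 0.00713) and *LIMD1*, another Ajuba-family gene (0.754-fold, adjusted p = 0.0189), on the lower side. On the higher side it added *UBE2S*, a ubiquitin-conjugating enzyme (1.49-fold, adjusted p = 0.0224). In normoxia the block also called *WTIP* higher (1.79-fold, adjusted p = 0.0126), with 3.93% of all gene bodies. Without both HIF1A-/- libraries numbered 1, 0 genes of the 14 were called higher and 1 lower.

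The substrates' own genes and a reference list frame these values. All 5 HIF subunit genes, *HIF1A*, *EPAS1*, *HIF3A*, *ARNT* and *ARNT2*, were tested and 0 were called in WT hypoxia (*HIF1A* 0.01, *EPAS1* 0.13 on the log2 scale). Between genotypes, *EPAS1* gene body values were 59.2 and 63.7 CPM in WT normoxia and 60.0 and 74.9 CPM in WT hypoxia, against 26.3 and 46.6 CPM and 26.7 and 41.2 CPM in the HIF1A-/- libraries. Every HIF1A-/- library was thus below every WT library. The fold of HIF1A-/- over WT cells was 0.593 in normoxia and 0.503 in hypoxia, not called by edgeR (adjusted p = 0.477 and 0.161). With the replicate block it was 0.573 (adjusted p = 0.0242, with 6.39% of all gene bodies called lower) and 0.496 (adjusted p = 0.00496), called at both oxygen levels. Without both HIF1A-/- libraries numbered 1, where *EPAS1* was lowest, the folds were 0.770 and 0.614 (adjusted p = 0.691 and 0.234). Of 12 known HIF targets, 11 were called higher in WT hypoxia and 0 in HIF1A-/- hypoxia, and their median log2 change in WT cells was 2.52. The change of *EGLN3* (2.17) was below that median and that of *EGLN1* (1.38) lay between *VEGFA* (1.21) and *SLC2A1* (2.03). The targets were picked as known responders, so their count is no independent evidence. For the difference between genotypes in the response, 5 of the 12 were called lower, against 0.0539% of all gene bodies. With the replicate block 11 were called lower, against 0.384%. The median log2 difference of the 12 was -2.45, and -2.44 without both HIF1A-/- libraries numbered 1.

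Across the 8 libraries, the gene bodies most like *EGLN1* by Pearson's r of log2 CPM were *PEX3* (0.993), *VEGFA* (0.992) and *FAM162A* (0.988). Those most like *EGLN3* were *WSB1* (0.994), *C4orf3* (0.994) and *LRP2BP* (0.990), and *EGLN1* and *EGLN3* had an r of 0.96 with each other. *FAM162A*, for example, had 29.1 and 28.7 CPM in WT normoxia, 134 and 198 CPM in WT hypoxia and 21.9 to 26.0 CPM in HIF1A-/- cells. The gene bodies most like *HIF1AN* were *SLC35A4* (0.973), *TGFBR3* (0.963) and *DNASE1L2* (0.953), and those most like *VHL* were *LOC100506302* (0.992), *DDA1* (0.983) and *ANKRD39* (0.981). *DDA1* had 49.1 and 46.3 CPM in WT normoxia and 41.6 and 32.8 CPM in WT hypoxia, the same order of the WT libraries as *VHL*. Between the other pairs of members with a testable body, r ran from -0.86 (*EGLN3* and *VHL*) to 0.63 (*HIF1AN* and *VHL*). All these correlations are descriptions over 8 libraries that share depth and preparation, and the most alike genes were picked as the highest of all tested gene bodies.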

How the data were processed

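PRO-seq was performed in 8 libraries of 4 groups. The members and gene lists were chosen with earlier results of these data known. As deposited, the values were raw read counts over each gene's regions. The authors obtained them with featureCounts (Subread 1.6.2) after alignment to GRCh37 with HISAT2 2.1.0, per the labels and methods, merging 2 sequencing runs per sample. A read over several gene bodies was assigned to none, as the nested bodies at 0 show. From the counts, genes above 0.5 CPM in at least 2 libraries were scaled by TMM and fitted in edgeR 4.0.16 (glmQLFit, glmQLFTest; R 4.3.3) as 4 group means, with Benjamini-Hochberg adjustment over all genes and a false discovery rate of 10%. TSS and gene body counts entered 1 fit of the ratio, with a term per library. In total 13 comparisons were tested on real and the fits checked on simulated data. DESeq2 1.42.0, library totals without TMM, no filter, a replicate block and omission of each library were alternatives, and omission of both HIF1A-/- libraries numbered 1 was added after seeing the data. Same-numbered libraries deviated together in all 6 pairs of groups (r of 0.501 to 0.848 for gene bodies, 0.218 to 0.522 for TSS regions). The replicate block and the folds of numbered pairs therefore took the numbers in the labels as pairs, although no source names a shared day. The main fit was unpaired. Replicate libraries differed by more than counting error (chi-square per degree of freedom 5.38 to 36.5). The study's methods call the duplicates biologically independent, and the labels add nothing on cultures. The floor of 3 counts covers counting error only. Named genes were the members, overlapping genes, these lists and the 3 gene bodies most like each member, with a pseudocount of 0.5 CPM on the log2 scale.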

Additional observations from a re-analysis of the deposited data

How the results depend on the processing

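Calls for *EGLN1* and *EGLN3* between genotypes in hypoxia, and for the *EGLN3* ratio in WT hypoxia, held in all 13 alternatives, while those for *EGLN1* and *EGLN3* in WT hypoxia held in 10 of 13. With 2 libraries per group, omission of 1 leaves a lone library that is assumed to vary like the other groups. *EGLN2* had 109 to 194 TSS reads per library and *VHL* 160 to 568, and *EGLN1*, with 0 to 2, has no TSS value. The replicate block brought below the threshold the log2 values -1.34 for the *EGLN1* gene body (difference between responses), -2.02 for the *EGLN3* gene body (difference between responses), 0.82 for the *EGLN2* TSS region (genotypes in normoxia), -0.53 for the *EGLN3* TSS region (genotypes in hypoxia) and 1.81 for the *EGLN3* ratio (difference between responses). DESeq2 did so with -1.35 for the *EGLN1* gene body (difference between responses), -2.04 for the *EGLN3* gene body (difference between responses) and 1.77 for the *EGLN3* ratio (difference between responses). Testing without the filter did so with 0.85 for the *EGLN2* TSS region (genotypes in normoxia), -0.51 for the *EGLN3* TSS region (genotypes in hypoxia) and 1.81 for the *EGLN3* ratio (difference between responses). Library totals without TMM turned the sign of values close to 0: 0.02 for the *VHL* gene body (HIF1A-/- response), 0.01 for the *RAB4B-EGLN2* gene body (HIF1A-/- response) and 0 for the *HIF1AN* TSS region (HIF1A-/- response). Leaving out both HIF1A-/- libraries numbered 1 ended the call at 0.92 for the *EGLN2* TSS region (genotypes in hypoxia) and turned the sign at 0.01 for the *VHL* gene body (HIF1A-/- response), -0.1 for the *RAB4B-EGLN2* gene body (difference between responses) and -0.1 for the *VHL* TSS region (difference between responses). The replicate block changed no other call of a member. Among gene bodies of the lists it added calls between genotypes for *ELOB*, *SIAH2*, *LIMD1*, *UBE2S*, *WTIP* and *EPAS1*. In normoxia it also called *VEGFA* (0.732-fold in HIF1A-/- against WT cells), *PDK1* (0.646-fold), *DDIT4* (0.471-fold) and *EPCAM* (0.649-fold) lower, with 6.39% of all gene bodies. Of 12 HIF targets, 1 was called higher in normoxia in both fits (with the block *SLC2A1*, 3.59-fold). In hypoxia the block called 2 of 5 epithelial markers higher and 2 lower, and the main fit 0. Omission of 1 library at a time moved the call within log2 ranges of *EGLN1* 1.23 to 1.53 and *EGLN3* 1.81 to 2.47 (gene body, WT response), *EGLN2* 0.51 to 1.14 (TSS region, genotypes in normoxia), *EGLN2* 0.92 to 1.56 (TSS region, genotypes in hypoxia) and *EGLN3* 1.51 to 2.1 (ratio, difference between responses). It turned the sign of uncalled values, within *HIF1AN* -0.17 to 0.09 and *RAB4B-EGLN2* -0.17 to 0.08 (gene body, WT response), *EGLN1* -0.01 to 0.1, *EGLN3* -0.21 to 0.45, *VHL* -0.06 to 0.04 and *RAB4B-EGLN2* -0.17 to 0.13 (gene body, HIF1A-/- response), *HIF1AN* -0.19 to 0.07 and *RAB4B-EGLN2* -0.13 to 0.18 (gene body, difference between responses), *VHL* -0.08 to 0.02 (gene body, genotypes in normoxia), *VHL* -0.03 to 0.37 (TSS region, WT response), *EGLN2* -0.54 to 0.15, *EGLN3* -0.29 to 0.4 and *HIF1AN* -0.1 to 0.09 (TSS region, HIF1A-/- response), *EGLN3* -0.62 to 0.06 and *VHL* -0.11 to 0.37 (TSS region, difference between responses), *EGLN3* -0.21 to 0.19 (ratio, HIF1A-/- response) and *VHL* -0.33 to 0.26 (ratio, difference between responses).

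The number of calls over all genes depended on the fit. Among gene bodies, for the WT response the count was 72, against 919 with the replicate block and 175 with DESeq2, and 0 to 89 when 1 library was left out. For the HIF1A-/- response the count was 0, against 6 with the replicate block and 8 with DESeq2, and 0 whichever library was left out. For the difference between responses the count was 9, against 64 with the replicate block, 68 with DESeq2, 17 with no filter and 0 with both HIF1A-/- libraries numbered 1 left out, and 0 to 10 when 1 library was left out. For the genotypes in normoxia the count was 297, against 1722 with the replicate block, 630 with DESeq2 and 166 with both HIF1A-/- libraries numbered 1 left out, and 75 to 269 when 1 library was left out. For the genotypes in hypoxia the count was 711, against 4706 with the replicate block, 1311 with DESeq2 and 303 with both HIF1A-/- libraries numbered 1 left out, and 165 to 863 when 1 library was left out. Among TSS regions, for the WT response the count was 7, against 153 with the replicate block, 15 with DESeq2 and 63 with no filter, and 1 to 12 when 1 library was left out. For the HIF1A-/- response the count was 0, against 1 with the replicate block and 2 with no filter, and 0 whichever library was left out. For the difference between responses the count was 1, against 7 with the replicate block, 3 with DESeq2, 8 with no filter and 0 with both HIF1A-/- libraries numbered 1 left out, and 0 to 2 when 1 library was left out. For the genotypes in normoxia the count was 100, against 652 with the replicate block, 406 with no filter and 58 with both HIF1A-/- libraries numbered 1 left out, and 30 to 513 when 1 library was left out. For the genotypes in hypoxia the count was 168, against 2196 with the replicate block, 312 with DESeq2, 1063 with no filter and 77 with both HIF1A-/- libraries numbered 1 left out, and 33 to 643 when 1 library was left out. Among ratios, for the WT response the count was 28, against 69 with the replicate block and 70 with no filter, and 7 to 40 when 1 library was left out. For the difference between responses the count was 3, against 20 with the replicate block, 17 with DESeq2, 19 with no filter and 0 with both HIF1A-/- libraries numbered 1 left out, and 0 to 10 when 1 library was left out. The causes of these shifts were not tested.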
